A study of Rattus norvegicus with 35 samples.

Results

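The 9 genes described here encode enzymes and binding proteins that silence chromatin: the DNA methyltransferases Dnmt1, Dnmt3a and Dnmt3b, the Dnmt1 partner Uhrf1, the Polycomb methyltransferase Ezh2, the histone deacetylases Hdac1 and Hdac2, the histone H3 lysine 9 methyltransferase Suv39h1 and the heterochromatin protein Cbx5. They were taken as a named set, with earlier results of these data known, so their counts below are not those of a blind choice. A probe was taken as one of theirs when the gene name in the scanner file was the symbol, and 14 of the 41012 probes of the array were kept for the 9 genes. The probe of Uhrf1 carries that name with the suffix _mapped, and both probes of Ezh2 carry only a gene number that the RefSeq table of rat genes pairs with Ezh2, so the name alone would have missed these 3 probes. The 2 probes whose description mentions Dnmt3a but whose gene name is another (Pwwp2 and RGD1305891) were left out.

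The study followed the mRNA profile of the olfactory epithelium of Brown Norway rats through life. RNA from 27 rats was hybridized on 35 Agilent whole rat genome arrays with 1 dye: 19 pups aged 3 to 5 days, of unknown sex and with 1 nasal side each, from litters L1 (4 pups), L2, L3 and L4 (5 pups each), and 4 male adults of 9 weeks and 4 males of 22 months with 2 arrays per rat, 1 for each nasal side. No rat was treated and none carried an altered gene. The dissected epithelium is a mixed tissue, and its RNA was amplified before labeling. Levels are given below as the log2 of the background-subtracted signal over the median of the array, so that 1 unit is a 2-fold difference, and the rat is the replicate.

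DNA methylation in mammals is copied onto new DNA strands by Dnmt1, which Uhrf1 brings to hemimethylated sites, while Dnmt3a and Dnmt3b place methyl groups on sites that had none. Ezh2 puts the Polycomb mark on histone H3 lysine 27, Hdac1 and Hdac2 remove acetyl groups from histones within corepressor complexes, and Suv39h1 writes the lysine 9 mark that Cbx5 (HP1 alpha) reads in heterochromatin. The olfactory epithelium renews its sensory neurons from dividing basal cells throughout life, and silencing of chromatin is known there for its part in olfactory receptor choice.

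Facts of the whole series bear on every value. The array medians lay between 46.0 and 96.5 in newborn, 88.7 and 179 in adult and 40.2 and 59.8 in old rats. The arrays were scanned on 5 days: the adult arrays alone on days 1 and 2, litter L1 with all old rats on day 3, and litters L2, L3 and L4 on days 4 and 5. Age and scan day therefore cannot be told apart except for L1 against old rats, and the adult scans were also read with an earlier release of the software. No slide held more than 1 age, so age and slide cannot be told apart in any comparison. L1 lay on slide 3 and the old rats on slides 4 and 5. Differences were tested with limma in a fit over the 4 litters, adult and old rats, adjusted over the 23668 transcripts expressed in common, meaning above background on at least 3 arrays of each litter and 6 of 8 arrays of adult and of old rats. A transcript was called at an adjusted p under 0.01. Each litter was its own group in this fit. The SE and p of newborn comparisons thus rest on the spread of rats within groups and leave out the spread between litters. The median of all these transcripts itself shifted by 0.16 for newborn minus adult, -0.04 for newborn minus old and -0.19 for adult minus old rats, and by no more than 0.05 in size with quantile normalization, which gives each array the same distribution. None of the 9 markers of mature olfactory sensory neurons with a probe was below background on all arrays. The same held for every other list of cell markers used below, so this does not test the label of the tissue.

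Dnmt3b, Ezh2, Suv39h1 and Uhrf1 were called higher in newborn than in adult rats and higher in adult than in old rats. The newborn against adult call of Uhrf1 and the adult against old call of Suv39h1 were lost under some settings given below. Each gene is counted here on its probe with the highest mean level. Of the 8 genes expressed in common, 6 were called higher in newborn than in adult rats (39.6% of all transcripts expressed in common were), none was called lower, and Dnmt3a and Cbx5 were not called. In either direction 65.8% of all transcripts were called. All 8 were called higher in newborn than in old rats (27.7% of all transcripts, with 31.7% called lower and 59.4% in either direction). Between adult and old rats, 5 of the 8 were called higher in adults (15.3% of all transcripts), Hdac1 was called lower (31.6%), and Dnmt1 and Hdac2 were not called, against 46.8% called in either direction. Other probes did not all give these calls. An upstream Hdac2 probe was called lower in newborn than in adult rats (-1.25) and higher in adult than in old rats (1.52). That probe was not called in newborn against old rats. An upstream Dnmt1 probe was called lower in adult than in old rats (-0.92). With a fold of at least 2 also required, 1 gene was higher in newborn than in adult rats (13.9% of all transcripts), 4 were higher in newborn than in old rats (9.46%) and 3 were higher in adult than in old rats (4.59%). Uhrf1, the ninth gene, was not above background in old rats and is described from the same fit over all 41012 probes, where 26.7%, 20.0% and 11.4% were called higher in these 3 comparisons. The median change of the 8 genes was 0.76 for newborn minus adult, 1.04 for newborn minus old and 0.74 for adult minus old rats, each above the median of all transcripts. In bulk tissue, fewer cells that make a transcript and less of it per cell cannot be told apart.

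**Figure D1:**
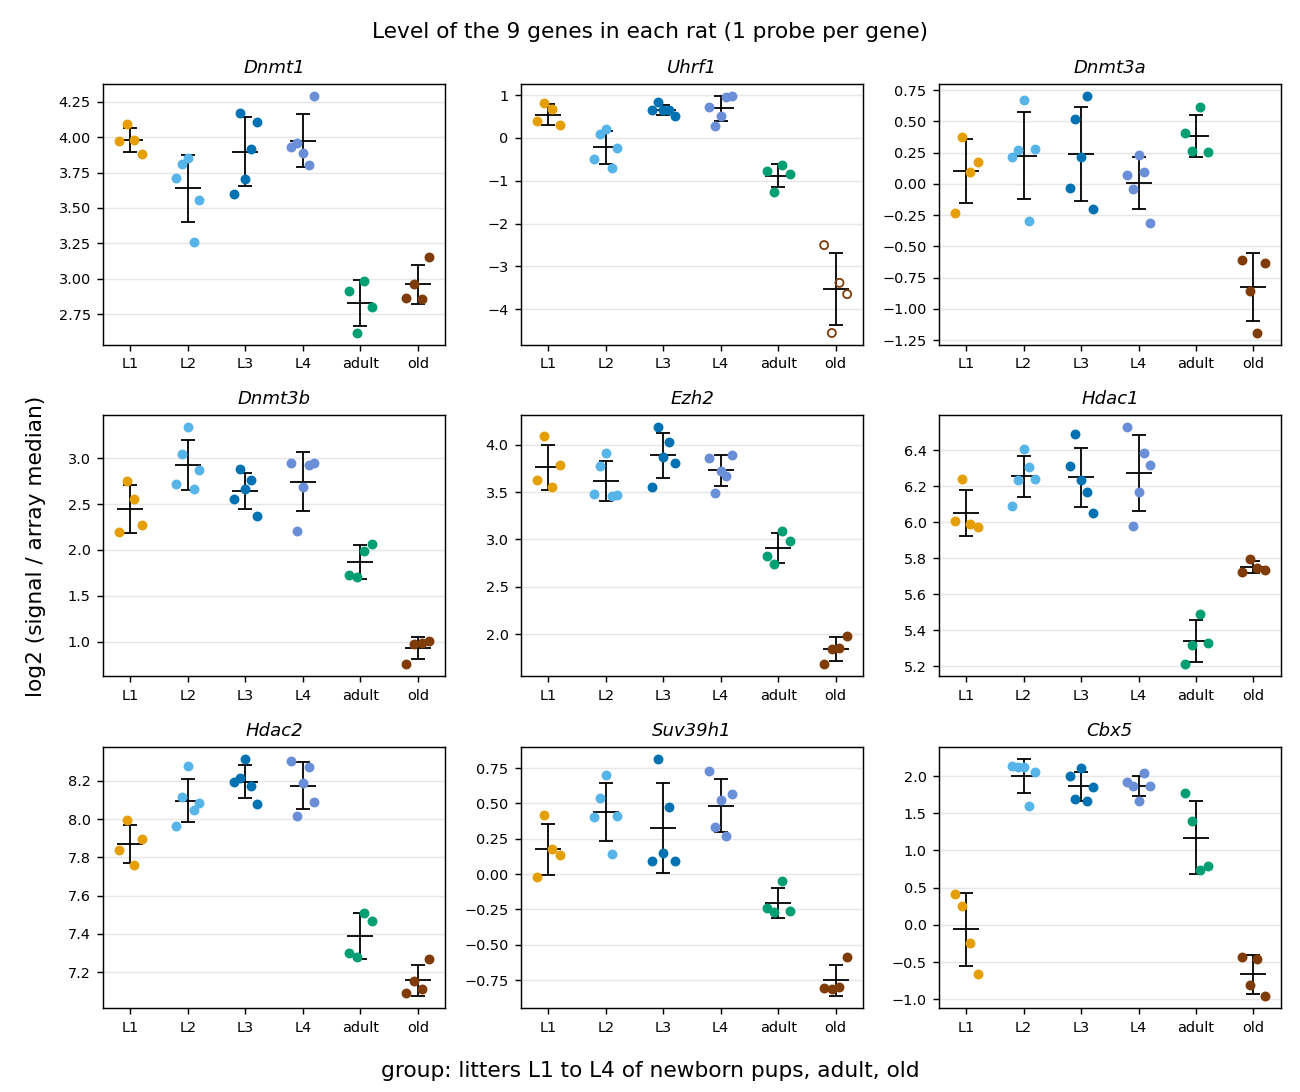
Level of each of the 9 genes by rat, as log2 of signal over array median on the vertical axes (a different range in each panel), for litters L1 to L4 of newborn pups, adult and old rats. A point is a rat, bars are the mean and SD of a group, and open points mark a group in which no array was above background. On the probe with the highest mean level of each gene, shown here, the mean of each litter lay above the adult mean except for Dnmt3a and, in litter L1, Cbx5.

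Dnmt1, which maintains methylation, was higher in every pup than in any adult or old rat. Its downstream probe (A_44_P125681, chr8:19929047-19929106 in build rn3, minus strand), which had the higher mean level of its 2 probes, gave 3.26 at the lowest, 3.89 at the median and 4.29 at the highest of the 19 pups. The adult rats read 2.91, 2.62, 2.98 and 2.80, and the old rats 2.87, 2.97, 2.86 and 3.15. The adult and old values overlapped, and both lay wholly below the pups. Newborn minus adult was 1.04 ± 0.10 (SE), a 2.06-fold difference (adjusted p = 3e-09), and newborn minus old was 0.91 ± 0.10 (adjusted p = 4.3e-08). Adult minus old was -0.13, with a 95% confidence interval from -0.41 to 0.15 and an adjusted p of 0.42.

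The upstream probe of Dnmt1 (A_44_P388853), whose ends lie 2368 bases apart at chr8:19952832-19955199 and which therefore spans spliced sequence, gave a larger difference at birth and separated adult from old rats. Its adult values were 0.55, 0.53, 0.40 and -0.08 and its old values 1.39, 1.59, 0.97 and 1.13, so that all old rats lay above all adults. Pups ranged from 2.15 to 3.06. In newborn against adult rats the change was 2.34 ± 0.13, a 5.07-fold difference (adjusted p = 4.5e-14), newborn minus old was 1.42 ± 0.13 (adjusted p = 6.7e-10), and adult minus old was -0.92 ± 0.16 (adjusted p = 4e-05, and 0.012 with the methods' t-test). Both probes put newborn rats highest, and they differed on whether adult and old rats differ. Sequences are given here from the scanner files for both probes of Dnmt1 and of Ezh2, whose readings differ, and for the upstream Hdac2 probe, which ran against the downstream one, 60 bases each, 5′ to 3′ and in lower case throughout.
Dnmt1 upstream: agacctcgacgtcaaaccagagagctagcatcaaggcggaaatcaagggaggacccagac
Dnmt1 downstream: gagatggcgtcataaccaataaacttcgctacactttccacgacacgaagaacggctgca
Ezh2 upstream: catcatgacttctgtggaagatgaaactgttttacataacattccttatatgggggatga
Ezh2 downstream: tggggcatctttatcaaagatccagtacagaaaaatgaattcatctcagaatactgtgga
Hdac2 upstream: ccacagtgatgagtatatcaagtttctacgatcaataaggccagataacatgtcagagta

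Uhrf1, which recruits Dnmt1 to replicated DNA, was above background on all 19 newborn and all 8 adult arrays and on 0 of 8 old arrays (A_44_P520058, chrUn:25453160-25454463 in rn3, not placed on a chromosome). The pups gave -0.71 at the lowest, 0.51 at the median and 0.99 at the highest, and the adults -0.78, -1.27, -0.63 and -0.84. Only litter L2 reached down to the adult values, since its lowest pup lay below the highest adult. Newborn minus adult was 1.30 ± 0.22, a 2.46-fold difference (adjusted p = 2.5e-05 in the fit over all probes). That call was lost with the litter means as replicates (adjusted p = 0.015) and with the rat (0.025), the slide (0.023) or the scan day (0.046) as a random block. In old rats the signal gave only a bound. Set against the lowest signal that was well above background on each old array, Uhrf1 was at least 6.5-fold higher at birth. Adults exceeded the same bound by at least 2.64-fold. These bounds hold for the main scaling only and were not tested. With normexp background correction and quantile normalization, newborn minus old was 0.95 and adult minus old 0.47 on the log2 scale, below both bounds. The limma fit to the measured values, below background in old rats, gave adjusted p = 1.1e-12 for newborn and 1.2e-07 for adult against old rats.

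The enzymes that methylate new sites differed from each other in when they changed. Dnmt3b (A_44_P287958, chr3:143974644-143974703, plus strand) went down at each age. Its pups lay between 2.19 and 3.34 with a median of 2.72, its adults read 1.73, 1.70, 1.99 and 2.07 and its old rats 0.75, 0.98, 0.99 and 1.01, and no age overlapped another. The newborn minus adult difference was 0.82 ± 0.13 (adjusted p = 3.9e-06), newborn minus old 1.76 ± 0.13, a 3.38-fold difference (adjusted p = 1.8e-11), and adult minus old 0.94 ± 0.17 (adjusted p = 3.5e-05). Dnmt3a (A_44_P374741, chr6:26881322-26881381, plus strand) overlapped between pups, which ranged from -0.32 to 0.71 with a median of 0.18, and adults, at 0.40, 0.26, 0.62 and 0.25. Its old rats were lower than both, at -0.61, -0.86, -1.19 and -0.63. Newborn minus adult was -0.24, with an interval from -0.55 to 0.07 (adjusted p = 0.15). Adult minus old was 1.21 ± 0.19, a 2.31-fold difference (adjusted p = 1.1e-05), and newborn minus old was 0.97 ± 0.15 (adjusted p = 4.6e-06).

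Ezh2, the catalytic subunit of Polycomb repressive complex 2, stepped down at each age. On its downstream probe (A_44_P363647, chr4:75989837-75989896, minus strand) the pups lay between 3.46 and 4.19 with a median of 3.77. The adult rats read 2.83, 2.74, 3.09 and 2.99, and the old rats 1.68, 1.85, 1.85 and 1.98. No rat of one age reached the values of another. In newborn against adult rats the change was 0.84 ± 0.11 (1.79-fold, adjusted p = 1.5e-07), newborn minus old 1.91 ± 0.11 (3.75-fold, adjusted p = 1.2e-13) and adult minus old 1.07 ± 0.14 (2.1-fold, adjusted p = 4.9e-07). The difference between L1 and old rats, scanned on the same day, was 1.92 ± 0.14 (adjusted p = 2.8e-11).

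The upstream Ezh2 probe (A_44_P492879), whose ends lie 22797 bases apart at chr4:76008873-76031669, was dim. It was above background on all 19 newborn arrays, 7 of 8 adult arrays and 0 of 8 old arrays, and the bound on its old level made it at least 4.29-fold higher at birth. For adults the same bound gave at least 1.69-fold. Both bounds hold for the main scaling only, and neither was tested. With normexp background correction and quantile normalization, newborn minus old was 0.91 and adult minus old 0.38 on the log2 scale, below both bounds. The fit over all probes to the measured values gave adjusted p = 2.1e-13 for newborn and 6.5e-09 for adult against old rats. Its mean was -1.72 in litter L1, against 0.84, 0.14 and 0.02 in the other litters in order, and the adult rats read -1.07, -1.07, -1.83 and -2.12. The L1 pups thus lay among the adults on this probe and with the other pups on the downstream one. Newborn minus adult was 1.34 ± 0.27 (adjusted p = 0.00019), and the call was lost with the litter means as replicates (0.065), with the rat (0.018), the slide (0.019) or the scan day (0.044) as a random block and with side A alone (0.011).

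Hdac1 (A_44_P400400, chr5:148683965-148684326, minus strand) was highest in pups, lowest in adults and between them in old rats. The pups lay between 5.97 and 6.53 with a median of 6.23. The adults read 5.21, 5.32, 5.49 and 5.33 and the old rats 5.73, 5.80, 5.74 and 5.73, with no overlap between ages. The newborn minus adult difference was 0.87 ± 0.08 (1.83-fold, adjusted p = 1e-09) and newborn minus old 0.46 ± 0.08 (1.37-fold, adjusted p = 2.9e-05), which became 0.30 ± 0.11 for L1 alone (adjusted p = 0.017). Adult minus old was -0.41 ± 0.11 (adjusted p = 0.0018, and 0.012 with the methods' t-test) but -0.06 with quantile normalization (adjusted p = 0.53) and -0.01 after normexp background correction as well (adjusted p = 0.93). The 75th percentile kept the call, at -0.33 (adjusted p = 0.0015).

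Hdac2, the close relative of Hdac1, was read by 3 probes that did not move together. The brightest (A_44_P139916, chr20:41209043-41209102, plus strand), called the downstream probe here, lay between 7.76 and 8.32 in pups with a median of 8.09. Adults read 7.30, 7.28, 7.51 and 7.47 and old rats 7.09, 7.16, 7.11 and 7.27, so that the pups stood above both and the adults just above the old rats. Newborn minus adult was 0.70 ± 0.07 (1.62-fold, adjusted p = 9.1e-10) and 0.18 with quantile normalization (adjusted p = 0.00074). Newborn minus old was 0.93 ± 0.07 (1.9-fold, adjusted p = 9e-12). Adult minus old was 0.23 ± 0.08 (adjusted p = 0.021), and it was called at 0.31 with the 75th percentile (adjusted p = 4.7e-05) and at 0.75 with quantile normalization (adjusted p = 1.6e-10).

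The upstream Hdac2 probe (A_44_P314206, chr20:41194007-41194066, plus strand) starts 15036 bases from the downstream one and ran the other way between birth and adulthood. Its adults read 1.05, 1.0, 1.74 and 1.56, above every pup (-0.39 to 0.45, median 0.10) and above the old rats at -0.25, -0.31, -0.26 and 0.11. Newborn minus adult was -1.25 ± 0.12 (adjusted p = 1.9e-09, where 26.2% of all transcripts were called lower), and it was also negative under each of the 3 other scalings (-1.37, -1.24 and -0.73). Adult minus old was 1.52 ± 0.16 (adjusted p = 1.9e-08), and newborn minus old was 0.27 ± 0.12 (adjusted p = 0.051). The third probe (A_44_P491158, chr20:41208994-41209053) lies on the minus strand, opposite to the other 2, and shares 11 genomic bases with the downstream probe. It stands for an expressed sequence read from the opposite strand, lay between -1.82 and -0.55 in pups, -1.63 and -1.29 in adults and -1.40 and -1.31 in old rats, and was called in none of the 3 comparisons, with adjusted p values of 0.16, 0.47 and 0.64.

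**Figure D2:**
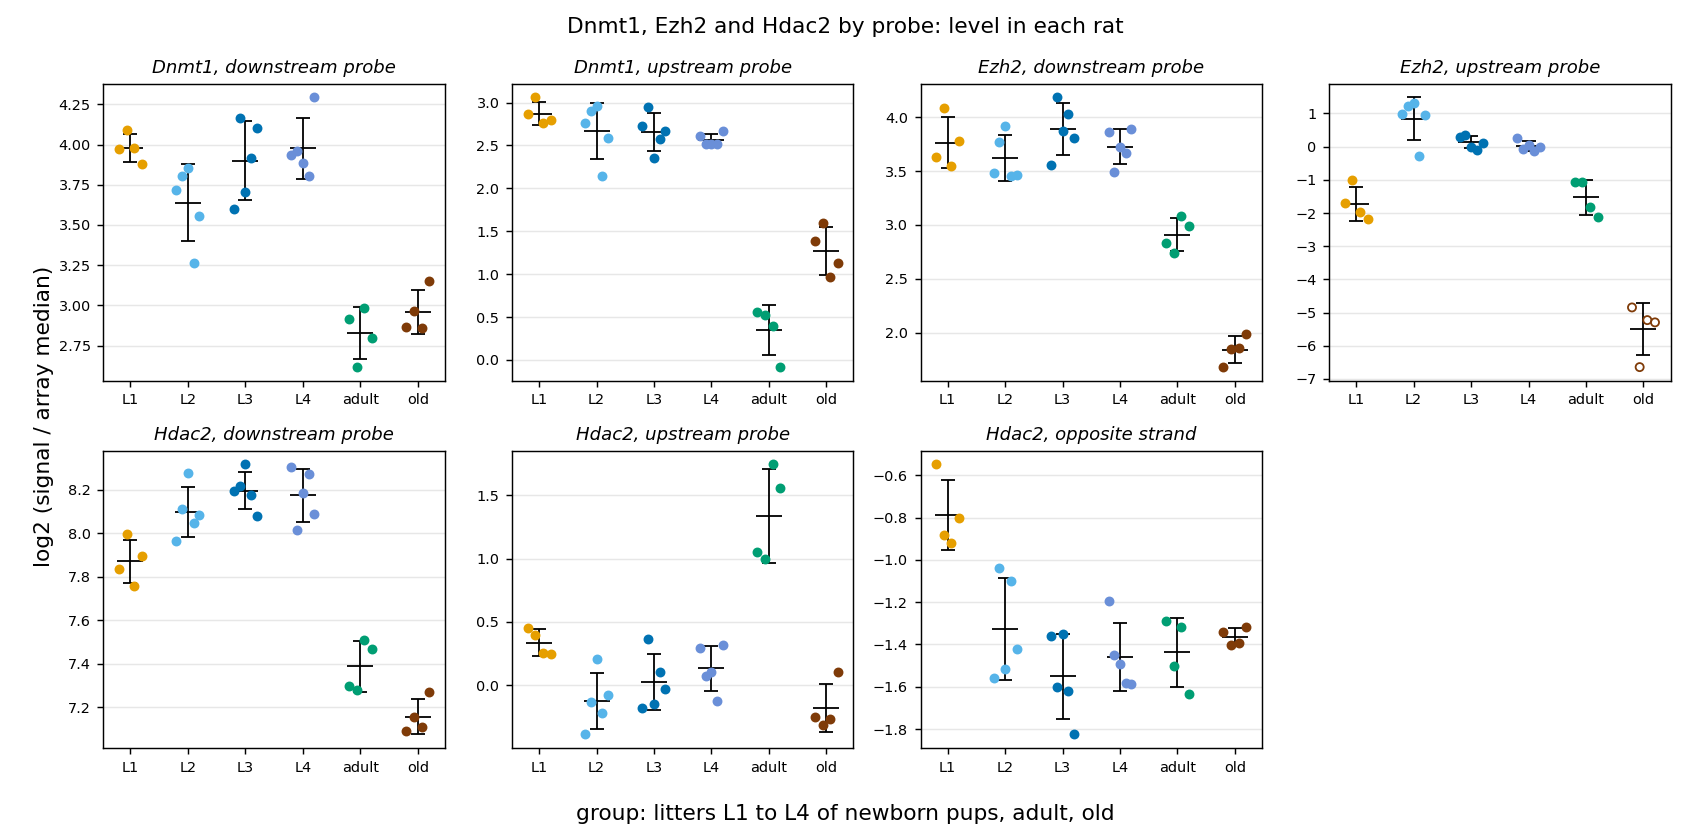
Level by rat on each probe of Dnmt1, Ezh2 and Hdac2, as log2 of signal over array median (a different range in each panel), with the mean and SD of a group, and open points where no array of the group was above background. The 2 same-strand Hdac2 probes order newborn and adult rats in opposite ways, and L1 stands apart from L2, L3 and L4 on the upstream Ezh2 probe.

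Suv39h1 (A_43_P21231, chrX:26515627-26515771, plus strand), which methylates histone H3 lysine 9, stepped down at each age with small differences. The pups lay between -0.02 and 0.82 with a median of 0.40, the adults read -0.24, -0.26, -0.05 and -0.26, and the old rats -0.81, -0.81, -0.80 and -0.59. No ages overlapped, though the lowest pup lay just above the highest adult. In newborn against adult rats the change was 0.56 ± 0.11 (1.47-fold, adjusted p = 8.1e-05), newborn minus old 1.11 ± 0.11 (2.15-fold, adjusted p = 4.7e-09) and adult minus old 0.55 ± 0.14 (1.46-fold, adjusted p = 0.0021). The last call was lost with normexp and quantile normalization (0.20, adjusted p = 0.036), with scan day as a random block (adjusted p = 0.013) and with side A alone (adjusted p = 0.021). Its second probe (A_44_P452731, chrX:26505386-26507541) was above background on 1 newborn and 1 old array, and its level was not compared.

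Cbx5 (A_44_P1019537, chr7:142188568-142188627, minus strand), the heterochromatin protein that binds the lysine 9 mark, had the widest spread among pups of the 8 genes expressed in common. The 4 pups of L1 read 0.42, 0.26, -0.24 and -0.66, while the 15 pups of the other litters lay between 1.60 and 2.13. Adults read 1.77, 1.39, 0.73 and 0.80 and old rats -0.43, -0.81, -0.46 and -0.95, so that the lowest L1 pup lay within the range of the old rats. Adult minus old was 1.84 ± 0.21, a 3.57-fold difference (adjusted p = 1.2e-07). Newborn minus old was 2.08 ± 0.17 over the 4 litters (4.23-fold, adjusted p = 8.8e-11), 2.57 ± 0.17 with L2, L3 and L4 alone (5.95-fold, adjusted p = 2.8e-12) and 0.60 ± 0.21 with L1 alone (1.52-fold, adjusted p = 0.018). Newborn minus adult was 0.25, with an interval from -0.10 to 0.59 (adjusted p = 0.18), and 0.74 ± 0.17 without L1 (1.67-fold, adjusted p = 0.00043). These SEs, intervals and p values leave out the spread between litters, whose means ran from -0.06 in L1 to 2.01 in L2.

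**Figure D3:**
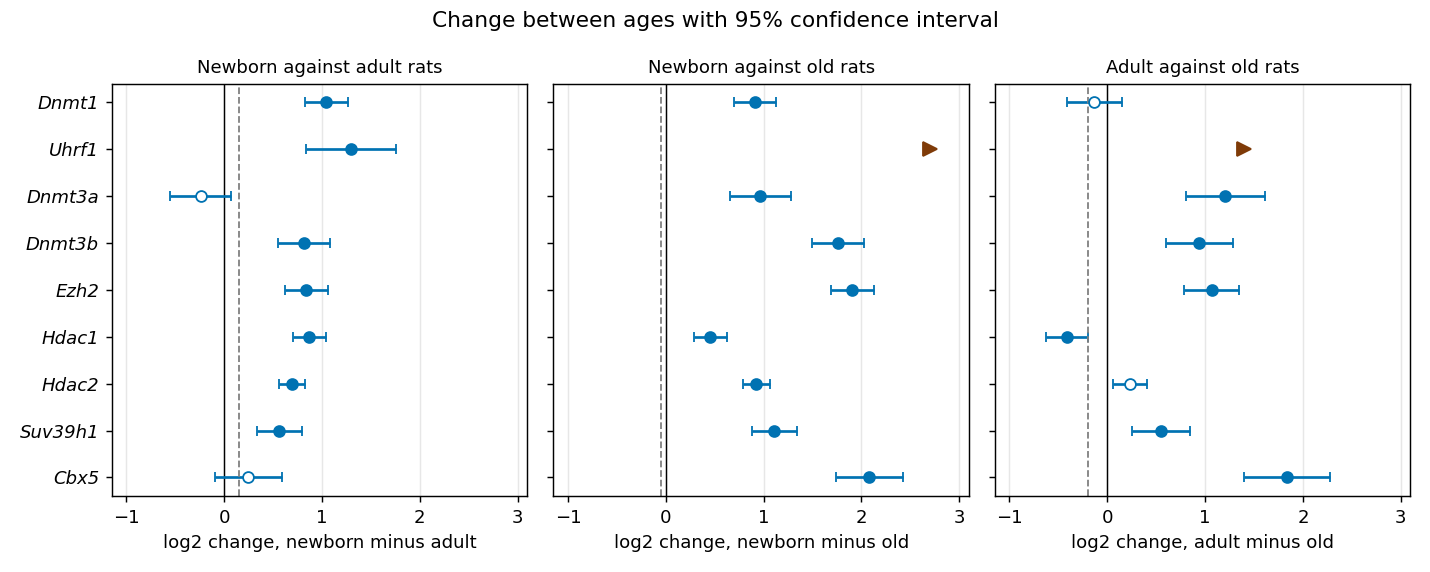
The log2 change of each gene between ages (first age minus second, horizontal axes) with its 95% confidence interval from the fit, filled where called and open where not. Arrowheads give the lower bound for Uhrf1 against old rats, and the dashed line is the median of all transcripts expressed in common. Each gene is shown on its probe with the highest mean level. On these probes the intervals of newborn against old rats all lie above 0. Hdac1 is the 1 gene with a called change below 0 between adult and old rats.

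Litters were compared by the moderated F test. Of the 8 genes expressed in common, Cbx5 and Hdac2 were called among litters, against 36.2% of all transcripts. The Cbx5 mean was -0.06 in L1 and 2.01, 1.86 and 1.87 in L2, L3 and L4 (adjusted p = 3.3e-08). The Hdac2 downstream means were 7.87, 8.10, 8.20 and 8.17 (adjusted p = 0.006, 0.23 with quantile normalization, and 0.025, 0.035 and 0.016 without L1 rats 9, 11 and 12 in turn), and the Hdac2 probe on the opposite strand was highest in L1, at -0.79 against -1.33, -1.55 and -1.46 (adjusted p = 6.7e-05). In each of these L1 was the litter that stood apart, and L1 was the litter scanned with the old rats. Without L1 none of the 8 genes was called, and for Cbx5 the highest litter was then 0.14 above the lowest (adjusted p = 0.76). Over all probes, where 21.5% were called among litters, the upstream Ezh2 probe was called too (adjusted p = 2.6e-05) and Uhrf1 was not (0.019), with a mean of -0.22 in L2 against 0.55, 0.66 and 0.69 in L1, L3 and L4.

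Scan day also separated rats of the same age on some of these probes. Adult rats 13 and 14 were scanned on day 2 and adult rats 15 and 16 on day 1, and their means differed, day 1 minus day 2, by -0.82 for Cbx5 (0.77 against 1.58), by -0.90 for the upstream Ezh2 probe and by 0.63 for the upstream Hdac2 probe. For the other genes, on the probe that stands for each, the difference lay between 0.10 and 0.32. On the upstream Dnmt1 probe it was -0.38. With 2 rats on each day no test was made. The part of the scan day in the results of Cbx5, Ezh2 upstream, Hdac2 upstream and Dnmt1 upstream was not tested. With scan day as a random block Cbx5 and the upstream Hdac2 probe kept their calls between adult and old rats. Adult and old rats shared no scan day, so this block cannot separate age from day. Within scan day 3, L1 minus old was called for 6 of the 8 genes expressed in common (17.6% of all transcripts were called higher), at 1.02 for Dnmt1, 0.93 for Dnmt3a, 1.51 for Dnmt3b, 1.92 for Ezh2, 0.71 for Hdac2 and 0.93 for Suv39h1, and not for Hdac1 and Cbx5. For the 8 genes expressed in common, the 2 sides of an adult or old rat differed by a median of 0.03 (Hdac2) to 0.27 (Dnmt3a) on the log2 scale over the 8 rats. The median was larger for Uhrf1 (0.55) and the upstream Ezh2 probe (0.68), which were not above background in old rats.

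Genes that work with the 9 were followed as 4 lists, with a gene's brightest probe. Their counts stand beside the shares of all transcripts called, which were 39.6% higher and 26.2% lower in newborn against adult rats, 27.7% and 31.7% in newborn against old rats, and 15.3% and 31.6% in adult against old rats. Among 9 expressed genes that read, erase or assist DNA methylation, 4 were called higher and 2 lower in newborn than in adult rats, with a median change of -0.15 against 0.16 over all transcripts, shares near those of all transcripts (39.6% and 26.2%). Mbd3, a subunit of the NuRD deacetylase complex, was 1.16 ± 0.06 higher (adjusted p = 3e-14) and the repair glycosylase Mbd4 0.98 ± 0.09 higher (adjusted p = 3.6e-10). The methyl-CpG reader Mbd1 was lower, by -0.86 ± 0.08 (adjusted p = 1.4e-09). In newborn against old rats 5 of the 9 were higher and 2 lower, and in adult against old rats 3 were higher and 3 lower.

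Among 15 expressed Polycomb genes other than Ezh2, 3 were higher and 7 lower in newborn than in adult rats (39.6% and 26.2% of all transcripts), with a median change of -0.17. Mtf2, which binds Polycomb repressive complex 2, was 1.20 ± 0.10 higher (adjusted p = 4.5e-11) and Phc1, a subunit of complex 1, 0.81 ± 0.06 higher (adjusted p = 3.3e-11). Phf1, another partner of complex 2, was lower by -2.25 ± 0.12 (adjusted p = 2.4e-14) and Cbx7, a reader of the Polycomb mark, by -1.46 ± 0.11 (adjusted p = 2.4e-11). Newborn against old rats gave 4 higher and 6 lower, and adult against old rats 4 higher and 4 lower.

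Among 25 expressed genes of deacetylases and corepressor complexes other than Hdac1 and Hdac2, 15 were higher and 3 lower in newborn than in adult rats (39.6% and 26.2% of all transcripts), with a median change of 0.37. Chd3, a NuRD helicase, was 1.34 ± 0.15 higher (adjusted p = 1.2e-08) and Rest, a repressor of neuronal genes, 1.33 ± 0.10 higher (adjusted p = 2.7e-11). The deacetylase Sirt1 was lower by -1.57 ± 0.16 (adjusted p = 3.3e-09) and the NuRD subunit Gatad2a by -0.54 ± 0.09 (adjusted p = 1.7e-05). In newborn against old rats 10 were higher and 5 lower, and in adult against old rats 3 were higher and 9 lower, the latter near the 31.6% of all transcripts. Among 14 expressed genes of lysine 9 methylation and heterochromatin other than Suv39h1 and Cbx5, 8 were higher and 3 lower at birth than in adults (39.6% and 26.2% of all transcripts), with a median of 0.33. The heterochromatin protein Cbx1 was 1.61 ± 0.10 higher (adjusted p = 3.1e-13) and the chromatin remodeler Atrx 1.1 ± 0.09 higher (adjusted p = 2.3e-11), while the lysine 20 methyltransferase Suv420h2 was lower by -0.99 ± 0.12 (adjusted p = 1.2e-07) and the lamin B receptor Lbr by -0.62 ± 0.10 (adjusted p = 8.3e-06). This list gave 6 higher and 0 lower in newborn against old rats, and 5 higher and 6 lower in adult against old rats.

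Genes of dividing cells also differed between ages. Of all transcripts, 39.6% were called higher in newborn than in adult rats and 27.7% higher in newborn than in old rats. In adult against old rats 15.3% were called higher and 31.6% lower. Of 26 expressed genes of that list (29 with a probe), 25 were called higher in newborn than in adult rats and 25 higher in newborn than in old rats, with medians of 2.25 and 2.92, and 12 were higher and 1 lower in adult than in old rats, with a median of 0.57. The summed level of the list (signal over array median) ran from 881 to 1410 in pups, 264 to 356 in adults and 271 to 292 in old rats, so that adult and old rats overlapped. The mitotic kinase Cdk1 was 2.97 ± 0.11 higher in newborn than in adult rats (adjusted p = 7.2e-17). Several of the 9 genes are known to be transcribed as cells divide, and the part of the number of dividing cells in their change was not tested.

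**Figure D4:**
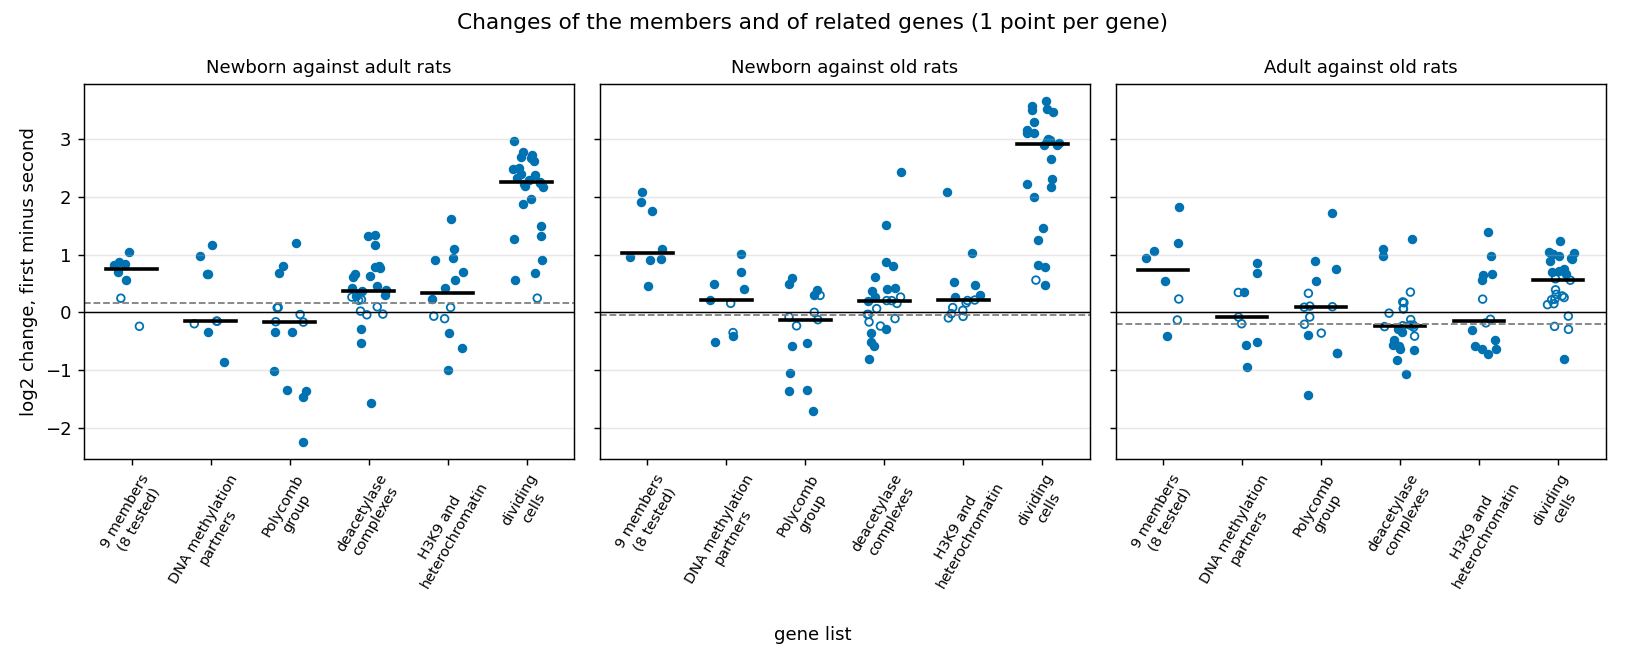
The log2 change between ages (vertical axis, first age minus second) of the 8 members expressed in common, of the 4 lists of related genes and of the dividing-cell list, 1 point per gene, filled where called. Thick bars are medians and the dashed line is the median of all transcripts expressed in common. The dividing-cell list has the highest median in both comparisons with newborn rats (2.25 and 2.92), and the members have the highest median in adult against old rats (0.74).

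Markers of the cells that a dissected epithelium may hold moved as well, and their part in the levels of the 9 genes was not tested. Of all transcripts, 39.6% were called higher and 26.2% lower in newborn against adult rats, and 15.3% higher in adult against old rats. All 9 mature olfactory sensory neuron genes were lower in newborn than in adult rats (median -2.24, sums of 236 to 493 in pups, 1241 to 1680 in adults and 1888 to 2561 in old rats). Immature neuron markers were called higher at birth than in adults for 6 of 7 expressed genes (median 1.02) and those of globose basal cells for 5 of 5 (median 1.59), against 2 of 7 for horizontal basal cells, where 1 was lower. Sustentacular genes were lower for 4 of 5 (median -1.39). Bone genes differed most between adult and old rats, where 5 of 7 were higher in adults and 1 was lower (median 2.68, sums of 3042 to 5368 in adults and 796 to 1369 in old rats). Against adults, pups had higher levels of red cell genes for 5 of 6, muscle genes for 3 of 3 expressed of 7 with a probe, and macrophage genes for 3 of 6, the last near the share of all transcripts. No list had a gene below background on all arrays. Even 7 of 9 reference genes were called higher and 1 lower in newborn than in adult rats. Their median of 0.55 exceeded the changes of Dnmt3a and Cbx5 and was near that of Suv39h1 (0.56). In adult against old rats 0 of the 9 were called higher and 6 lower (31.6% of all transcripts were lower). Their median there was -0.55, larger in size than the change of Hdac1 (-0.41).

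The transcripts nearest to each gene were sought among 10440 other named genes by the root mean square difference of the 6 centred group means, as a description. For Ezh2 the nearest was Lmnb1, which encodes lamin B1 (0.10), followed by Gucy2c and Adamts5. For Suv39h1 they were Haus3 (0.05), a subunit of the spindle augmin complex, Alcam and the cell cycle kinase Cdk2, and for Dnmt3b they were Mycl1 (0.08), Ier5l and Igfbp4. Dnmt1 was nearest to Mmp24 (0.05), Ltbp4 and Dgkz, and Dnmt3a to Cables2 (0.09), Pcdhb15 and Myo9b. Near Hdac1 were Hspa13 (0.03) and Dtnbp1, and Hdac2 was nearest to Zfp496 (0.04), Cenpj and Dazap1. For Cbx5 the nearest were Evl (0.19), Tmsb10 and Cdk2ap1, all 3 of which also had their L1 mean below those of the other litters.

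Promoters of the 9 genes were read from RefSeq (build GRCr8), from 250 bases before to 50 after each start, and 8 genes matched, while Dnmt3b had no entry. They held between 8 and 35 CpG dinucleotides, against a median of 7 over all 33469 promoters. E2F factors switch on genes for DNA replication, and their sites were searched on both strands (as these letters or their reverse complement) as TTTCCCGC, TTTGGCGC, TTTCGCGC and TTTGCCGC. At least 1 of these words stood in a promoter of Dnmt1, Ezh2 and Uhrf1, and in 2.14% of all promoters or 4.96% of the 9693 promoters with at least 17 CpG. That cut was the lowest CpG count among the promoters of these 3 genes that matched. The motif CCAAT stood in promoters of 5 of the 8 genes (37.5% of all promoters), GGGGCGGGG in that of Cbx5 (9.73%) and TTTGAA in none of the 8 (18.3%). These counts are per gene, with a match in any listed start, while the shares are per promoter. Uhrf1 and Suv39h1 have more than 1 start and so more room for a match. A match is a description of letters, not a site of binding. The 3 promoters with E2F-type words are given below, 5′ to 3′ on the strand of the gene, with these words in capitals. They are chr8:27762792-27763091 (minus strand), chr4:77687134-77687433 (minus strand) and chr9:1222936-1223235 (plus strand), the last being 1 of 3 starts listed for Uhrf1, of which the other 2 held no such word.
Dnmt1: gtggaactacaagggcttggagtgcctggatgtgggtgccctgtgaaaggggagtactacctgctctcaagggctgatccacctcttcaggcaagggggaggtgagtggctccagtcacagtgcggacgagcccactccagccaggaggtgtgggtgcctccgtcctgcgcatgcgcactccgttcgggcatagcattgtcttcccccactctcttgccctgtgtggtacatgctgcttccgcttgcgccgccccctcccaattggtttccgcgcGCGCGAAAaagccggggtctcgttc
Ezh2: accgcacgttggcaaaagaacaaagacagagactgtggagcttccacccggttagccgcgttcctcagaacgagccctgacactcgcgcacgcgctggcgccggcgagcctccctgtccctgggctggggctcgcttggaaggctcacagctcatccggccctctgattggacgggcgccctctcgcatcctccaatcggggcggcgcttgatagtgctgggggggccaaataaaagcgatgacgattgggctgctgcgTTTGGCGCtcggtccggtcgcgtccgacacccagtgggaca
Uhrf1: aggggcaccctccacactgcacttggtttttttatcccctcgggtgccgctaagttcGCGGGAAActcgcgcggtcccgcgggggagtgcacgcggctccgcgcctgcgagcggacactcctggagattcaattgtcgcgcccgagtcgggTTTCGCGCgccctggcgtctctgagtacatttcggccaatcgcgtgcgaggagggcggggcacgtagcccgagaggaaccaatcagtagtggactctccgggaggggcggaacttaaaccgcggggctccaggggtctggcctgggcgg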

How the data were processed

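RNA of 27 rats was measured on 35 arrays. The deposited scanner files hold a probe intensity that the authors extracted with Agilent Feature Extraction (9.5.1.1 for adult and 9.5.3.1 for the other arrays, per the file headers and the submitters' processing notes), already background-subtracted. The authors also deposited a table of GeneSpring ratio values, used here only as an alternative: all 41012 rows matched a probe, and for 99.84% of the transcripts expressed in common it differed from the scanner values by 1 constant per probe (SD of log2 under 0.01), so its centring is per probe and its levels were not used.

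Spots of a probe were averaged without outlier flags, divided by the array median, floored at 0.01 and put on the log2 scale, and both sides of each male were averaged to 1 value per rat. limma 3.58.1 in R 4.3.3 (lmFit and eBayes, with Benjamini-Hochberg adjustment) was fitted to 6 groups, newborn being the mean of the 4 litters. It replaced the t-test of the study's methods as the main test so that all groups share the spread. A call needed an adjusted p under 0.01, and a second rule also a fold of at least 2. Probes outside the 23668 transcripts expressed in common took their p from the same fit over all probes. The fit was tested on simulated data. The number of arrays limits the precision, and rats are separate animals.

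The probe with the highest mean level stands for a gene. Of each list of related genes (DNA methylation readers, erasers and partners, the Polycomb group, deacetylases and corepressor complexes, and lysine 9 methylation and heterochromatin), the 2 called genes with the largest change in each direction in newborn against adult rats are named. The other lists are dividing cells, globose and horizontal basal cells, immature and mature olfactory sensory neurons, sustentacular cells, bone, skeletal muscle, red cells, macrophages and reference genes. For each gene the 3 nearest other genes are named. Some genes that these rules select are not reported here. Members and lists were chosen with earlier results of these data known. Alternatives were other scalings and background correction, the authors' table, arrays or litter means as replicates, 1 side alone, random blocks, other filters, the methods' t-test, the compared groups alone, a variance trend, every probe counted, and leaving out each rat. Using litters L2 to L4 alone as newborn was chosen after seeing the data.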

Additional observations from a re-analysis of the deposited data

Results flagged for a closer look

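Among 76 groups of 4 or 5 rats, 7 held a rat far from the others of its group, and chance flags about 1 in 20 groups. Dnmt3b was lower in old rat 17 (0.75) than in the other old rats (0.98 to 1.01). The upstream Ezh2 probe read -0.29 in L2 rat 24 against 0.95 to 1.33 in its litter, and Cbx5 read 1.60 in the same pup against 2.05 to 2.13. Hdac1 was higher in L1 rat 10 (6.24) than in the other L1 pups (5.97 to 6.01). The upstream Hdac2 probe read 0.11 in old rat 20 against -0.31 to -0.25, and Suv39h1 read -0.59 in that rat against -0.81 to -0.80. Suv39h1 was also higher in adult rat 15 (-0.048) than in the other adults (-0.26 to -0.24).

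The change from old rats differed between litters for 4 probes by the moderated F test of limma. From the lowest to the highest litter it spanned 2.56 for the upstream Ezh2 probe (adjusted p = 2.6e-05 over all probes), 2.06 for Cbx5 (3.3e-08), 0.76 for the Hdac2 probe on the opposite strand (6.7e-05) and 0.32 for the downstream Hdac2 probe (0.006).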

How the results depend on the processing

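Of 799 single values recomputed under other settings, 754 stayed on their side of the threshold, 15 gained a call and 30 lost it; of 1404 values with a rat left out, 1399 stayed. No called value changed sign, while 8 values of the Hdac2 probe on the opposite strand, none of them called, did. Counted over the 9 genes in either direction, 7 were called in newborn against adult rats (6 to 10 over the alternatives), 9 in newborn against old rats (7 to 11) and 7 in adult against old rats (5 to 10). Of all transcripts expressed in common, 65.8%, 59.4% and 46.8% were called. The highest counts were those with every probe counted, so these ranges are not all over 9 genes. In newborn against adult rats every probe counted gave 10 of 13, with the upstream Hdac2 probe called lower among them. The methods' t-test and the filter for probes above background on all arrays each gave 6 of 8. Leaving out a rat changed none of these 3 counts. The 2 genes called among litters became 1 with quantile normalization, 1 with the slide and 1 with the scan day as a random block, 0 with litters L2 to L4 alone (chosen after seeing the data), and 1 to 3 with a rat left out. The causes were not tested. Over all transcripts, 9361 were called higher and 6210 lower in newborn against adult rats (7692 and 8125 with quantile normalization), and 3614 higher and 7474 lower in adult against old rats (5177 and 5598). Calls higher in newborn than in old rats numbered 6552, or 4174 with L1 alone; those higher in adult than in old rats became 2146 with the methods' t-test; and the 8575 calls among litters became 4360 with the slide block and 2318 without L1. The methods' t-test was not run among litters. No paired analysis was possible because rat numbers are not shared between groups. Probes below background in old rats give only bounds.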
